A study of Mus musculus with 4 samples.

Results

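The genes described here are 10 regulators and markers of bone and cartilage, read in primary mouse embryonic fibroblasts (connective tissue cells cultured directly from embryos). They are the transcription factors Runx1, Runx2, Sox9, Sox5, Sox6 and Sp7, the bone products Alpl, Spp1 and Ibsp, and the cartilage matrix protein Matn3. Members were taken as every probe set of the Affymetrix array whose annotation names exactly 1 of these genes, a probe set being several short oligonucleotides chosen to detect the same transcript. This gave 26 probe sets of 8 genes, out of 18193 genes with a named probe set, while Runx2 and Spp1 were not analysed here. The arrays were hybridised with RNA from 2 independent RBP2-/- lines, called RBP2-null below, and 2 independent wild-type lines. All 4 lines were at passage 3, and each was measured on 1 array. RBP2 is the histone demethylase encoded by Kdm5a. Strain, embryonic age and the part of the gene that was deleted are not given in the sources used here, and the labels tie no line of one genotype to a line of the other.

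Bone-forming osteoblasts and cartilage-forming chondrocytes arise from mesenchymal precursors related to fibroblasts. In the mouse, Runx2 and then Sp7 (osterix) are required for osteoblasts, whose later products include the phosphatase Alpl and the matrix proteins Spp1 (osteopontin) and Ibsp (bone sialoprotein). Sox9 starts the cartilage programme and works with Sox5 and Sox6, and Matn3 is a matrix protein of growing cartilage. Runx1 shares the DNA-binding Runt domain with Runx2 and is best known for its role in the origin of blood stem cells, although skeletal precursors also express it. RBP2 erases methylation of histone H3 at lysine 4, which is found at active promoters, and was first isolated as a partner of the retinoblastoma protein, which is itself known to bind Runx2.

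Because that mark lies at promoters, the DNA in front of a few of the genes is shown first. RefSeq windows of 300 bases, from 250 before to 50 after a start site, were at hand for 6 of the 8 measured genes, 13 windows in all, from mouse build GRCm38.p6. Sox9 and Sp7 had none. The stretches below are the last 120 bases before the start, with CG dinucleotides in capitals. Runx1 has a distal and a proximal promoter, and the pair is shown because the windows differ in CG content within 1 gene. Alpl and Matn3 are shown as the bone product and the cartilage product whose brightest probe sets separated the genotypes below.
Runx1 distal, chr16:92826075-92826194, minus strand: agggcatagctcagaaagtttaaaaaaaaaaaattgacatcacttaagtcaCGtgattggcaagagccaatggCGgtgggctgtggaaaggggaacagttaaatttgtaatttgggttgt
Runx1 proximal, chr16:92697330-92697449, minus strand: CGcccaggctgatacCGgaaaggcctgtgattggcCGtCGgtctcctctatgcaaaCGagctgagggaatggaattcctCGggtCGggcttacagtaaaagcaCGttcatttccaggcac
Alpl upstream, chr4:137796385-137796504, minus strand: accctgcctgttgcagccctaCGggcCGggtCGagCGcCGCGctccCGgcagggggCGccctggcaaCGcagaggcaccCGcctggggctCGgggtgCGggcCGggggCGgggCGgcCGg
Matn3, chr12:8947809-8947928, plus strand: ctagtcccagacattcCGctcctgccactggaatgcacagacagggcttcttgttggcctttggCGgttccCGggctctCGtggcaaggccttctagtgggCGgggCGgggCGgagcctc

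The ratio of observed to expected CG dinucleotides over the whole window was 0.137 for distal Runx1 and 1.01 for proximal Runx1, and 0.720 for the upstream Alpl window and 0.511 for Matn3. The median over all 32851 mouse windows was 0.384, and 5 of the 13 windows of these genes lay above it. Letters of 4 motifs were searched, 3 of them on both strands. The RUNX letters TGTGGT were in 3 of the 13 windows, against 16.8% of all windows, and in distal Runx1 both matches lay after the start site. The SOX letters ACAAAG were in 7 of the 13, against 18.7% of all windows, of which 5 were alternative Sox6 starts and 2 were Alpl starts. In 1 Sox6 window a RUNX and a SOX match overlapped. The GC box letters GGGCGG were in 3 windows, against 35.7% of all, with overlapping matches in Alpl and Matn3. The TATA box letters TATAAA, searched on the sense strand only, were in 1 window, against 8.32% of all. Such matches describe these letters and show no binding.

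Median deposited signal ranged from 21.5 to 43.7 over the 4 arrays, so signals were brought to a common distribution by quantile normalization before comparison. Levels below are normalized log2(signal + 9), on which 3.17 stands for no signal, and probe sets of different genes cannot be compared with each other in level. Wild-type replicate 1 stood apart, with correlations of 0.927 to 0.928 with the other arrays, while the other arrays correlated with each other at up to 0.965. All 12 listed fibroblast markers, among them Col3a1, Vim, Thy1 and Pdgfra, had a probe set bright enough to be kept. By the same rule 13097 of all 18193 named genes were kept, so being kept does not by itself tell a cell type. Kdm5a itself had 6.40 and 6.49 in the RBP2-null lines and 6.72 and 7.65 in the wild-type lines on its brightest probe set, a log2 fold change of -0.74 (SE 0.34) at a limma adjusted p of 1.00. The other kept Kdm5a probe sets differed in direction, with -1.24, -0.25, 0.24 and 0.15, and none passed the test.

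No probe set of these genes passed the test for a difference between RBP2-null and wild-type cells. Of the 26 probe sets, 15 from 7 genes were among the 27022 kept as the brighter 60% and tested in limma, and 0 of the 15 passed an adjusted p of 0.05, which 0.0037% of all kept probe sets did. At an unadjusted p under 0.05 there was 1 of 15, a Runx1 probe set, against 2.98% of all kept probe sets. The log2 fold change, RBP2-null minus wild type, ran from -0.80 to 0.78 over the 15. With 9 added to the signal, none reached a 2-fold difference, which 2.34% of all kept probe sets did. The median was 0.14 over the 15 probe sets and 0.0031 over all kept ones. Since there are 2 lines per genotype, the p-values speak only of the scatter among these cultures. The median standard error over the 15 was 0.41, against 0.33 over all kept probe sets. A 95% interval lay wholly within a 2-fold difference for 2 of the 15, both of Runx1, so for the other 13 a 2-fold difference in at least 1 direction was not excluded by the interval.

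**Figure D1:**
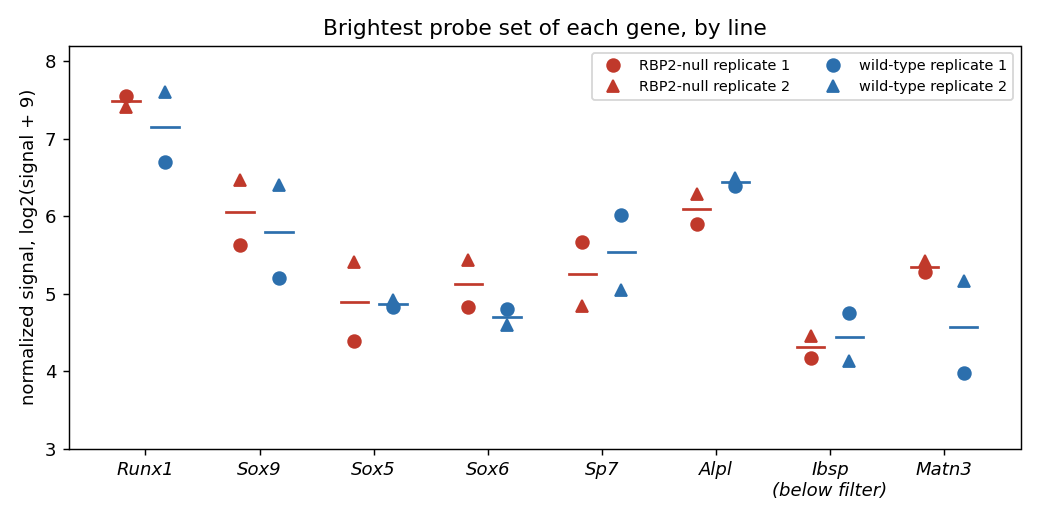
Normalized log2(signal + 9) of the brightest probe set of each of the 8 measured genes (horizontal axis) in each line; red marks RBP2-null and blue wild-type lines, circles replicate 1 and triangles replicate 2, and short bars the mean of 2 lines. The genotypes separate for Sox6, Alpl and Matn3, and the 2 wild-type lines lie far apart for Runx1, Sox9, Sp7 and Matn3.

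For most of these probe sets, as for most on the array, the lines of at least 1 genotype differed by more than the genotype means did. For 21 of the 26 probe sets, the gap between the lines of at least 1 genotype was larger than the difference between the genotype means, and this held for all 8 brightest probe sets. The share was 81.7% over all probe sets and 81.9% over the brightest probe set of every named gene. The larger of 2 single-line gaps is set against a difference of 2-line means, so a high share arises even without a genotype difference. Both RBP2-null lines lay above both wild-type lines for 7 of the 26 and below both for 5, against 14.8% and 15.6% of all probe sets, and the groups overlapped for the other 14. Several of these probe sets read the same gene, so they are not separate observations. On the brightest probe set of each gene, 2 of 8 were above (Sox6 and Matn3), 1 was below (Alpl) and 5 overlapped, while 30% of all named genes did not overlap in either direction.

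Runx1 was read by 6 probe sets, all kept, and they did not share a direction. The brightest (1422864_at) had 7.55 and 7.42 in the RBP2-null lines and 6.70 and 7.61 in the wild-type lines. Wild-type replicate 1 was the low line and the groups overlapped, with means of 7.48 ± 0.09 in RBP2-null and 7.15 ± 0.64 in wild-type cells (SD, n = 2 each). The log2 fold change was 0.33 (SE 0.33, 95% interval -0.42 to 1.08). As deposited, before scaling, this probe set read 137.8 and 255.5 in the RBP2-null lines and 61 and 193.2 in the wild-type lines.

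The Runx1 probe set farthest from 0 pointed the other way. Probe set 1440878_at had 5.63 and 5.21 in the RBP2-null lines and 6.47 and 5.99 in the wild-type lines, so both RBP2-null lines were lower. Its log2 fold change was -0.80 (SE 0.35, 95% interval -1.61 to -0.003), at an unadjusted p of 0.0494 and a limma adjusted p of 1.00. In a fit of all probe sets without the filter, the 95% interval was -1.71 to 0.10 and included 0. The estimate stayed below 0 with each array left out in turn, between -1.04 and -0.56. Probe set 1452531_at was also lower on average, at 6.67 and 5.55 in the RBP2-null lines and 6.90 and 6.39 in the wild-type lines. Here RBP2-null replicate 1 lay between the wild-type lines, so the groups overlapped. The log2 fold change was -0.53, with a 95% interval from -1.47 to 0.40, and 0.03 without RBP2-null replicate 2.

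The remaining 3 Runx1 probe sets had both RBP2-null lines above both wild-type lines, by small margins. Probe set 1427650_a_at had 5.80 and 5.50 in the RBP2-null lines and 4.91 and 5.37 in the wild-type lines, a log2 fold change of 0.51 (95% interval -0.36 to 1.38). Probe set 1452530_a_at had 6.91 and 6.64 against 6.63 in each wild-type line, and 1422865_at had 6.40 and 6.47 in RBP2-null against 6.38 and 6.39 in wild-type lines. Their log2 fold changes were 0.14 (95% interval -0.48 to 0.76) and 0.05 (-0.59 to 0.68), the narrowest intervals among these genes. Which transcript forms the 6 probe sets read was not tested.

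Sox9, the transcription factor that starts cartilage formation, also had probe sets on either side of 0. The brightest (1424950_at) had 5.63 and 6.47 in the RBP2-null lines and 5.20 and 6.40 in the wild-type lines. Replicate 2 was the higher line in each genotype, the groups overlapped, and the log2 fold change was 0.25 (95% interval -0.82 to 1.33). A second kept probe set (1451538_at) had 4.91 and 5.35 in the RBP2-null lines and 5.95 and 5.74 in the wild-type lines. Both RBP2-null lines were lower on it, with a log2 fold change of -0.72 (SE 0.37, 95% interval -1.56 to 0.11) at a limma adjusted p of 1.00. It stayed between -0.87 and -0.50 with each array left out. The third Sox9 probe set was below the filter, at 3.69 and 3.81 in RBP2-null and 3.55 and 4.90 in wild-type lines.

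Sox5 and Sox6, close relatives that lack an activation domain of their own and assist Sox9 on cartilage genes, were dim. Of 7 Sox5 probe sets 1 was kept (1452511_at), with 4.39 and 5.41 in the RBP2-null lines and 4.82 and 4.91 in the wild-type lines. The RBP2-null lines lay on either side of the wild-type lines, and the log2 fold change was 0.03 (95% interval -1.09 to 1.15). The other 6 Sox5 probe sets had means below the filter at 4.76, and the groups overlapped on 5 of them. On the exception, 1459261_at, the normalized signal was 7.4 and 8.7 in the RBP2-null lines and 3.2 and 1.1 in the wild-type lines, all below the pseudocount of 9.

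Sox6 had 4 probe sets, of which 2 were kept. The brightest (1427677_a_at) had 4.83 and 5.43 in the RBP2-null lines and 4.80 and 4.60 in the wild-type lines. The groups did not overlap, but RBP2-null replicate 1 lay only just above wild-type replicate 1, and the log2 fold change was 0.43 (95% interval -0.59 to 1.45), or 0.12 without RBP2-null replicate 2. The other kept one (1434918_at) had 5.32 and 5.12 in the RBP2-null lines and 3.93 and 5.15 in the wild-type lines. Only wild-type replicate 1 was low there, and the log2 fold change was 0.68 (95% interval -0.50 to 1.87), or 0.08 without that array. A probe set below the filter (1426018_a_at) had the opposite order, with 3.36 and 4.30 in RBP2-null and 5.03 and 4.44 in wild-type lines, and the groups overlapped on the last one.

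Sp7, which acts after Runx2 in osteoblast formation, had 1 probe set, with 5.67 and 4.84 in the RBP2-null lines and 6.02 and 5.04 in the wild-type lines. Replicate 1 was the higher line in each genotype and the groups overlapped. The log2 fold change was -0.28 (95% interval -1.36 to 0.80). Without scaling, the deposited signal was 30.5 and 28.8 in RBP2-null and 39.3 and 24.1 in wild-type lines.

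Alpl, the phosphatase that frees phosphate for mineral and an early mark of osteoblasts, had 1 probe set, with 5.90 and 6.29 in the RBP2-null lines and 6.39 and 6.49 in the wild-type lines. Both RBP2-null lines were lower. The means were 6.09 ± 0.27 in RBP2-null and 6.44 ± 0.07 in wild-type cells (SD, n = 2 each), a log2 fold change of -0.34 (SE 0.30, 95% interval -1.03 to 0.34) at a limma adjusted p of 1.00. Its estimate stayed below 0 in every alternative setting run, between -0.51 and -0.15. Settings that changed the scaling are taken relative to the median shift of all kept probe sets. Without scaling and with median-centred arrays this gives the same value, -0.37. The median shift without scaling was 0.38, so the direction in that setting rests on taking the shift out. As deposited, Alpl read 37.5 and 108.2 in RBP2-null and 49.7 and 82.8 in wild-type lines, so the groups overlapped before scaling.

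Ibsp, a late osteoblast product, had 2 probe sets and both were below the filter. The brighter (1417485_at) had 4.17 and 4.45 in the RBP2-null lines and 4.75 and 4.13 in the wild-type lines, and the groups overlapped. The dimmer one (1417484_at) had a normalized signal of 1.1 and 0.4 in RBP2-null and 6.0 and 2.3 in wild-type lines, all below the pseudocount. In a fit of all probe sets without the filter, the log2 fold changes were -0.13 (95% interval -1.14 to 0.88) and -0.42 (-0.94 to 0.10), and the limma adjusted p was 1.00 for each. No detection calls were at hand, so whether Ibsp was expressed was not tested.

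Matn3, an adaptor protein of cartilage matrix, had the highest log2 fold change among the tested probe sets of these genes. Its brightest probe set (1422148_at) had 5.28 and 5.42 in the RBP2-null lines and 3.98 and 5.16 in the wild-type lines. Both RBP2-null lines were higher, but wild-type replicate 2 lay close to them and wild-type replicate 1 far below. The means were 5.35 ± 0.10 in RBP2-null and 4.57 ± 0.83 in wild-type cells (SD, n = 2 each), a log2 fold change of 0.78 (SE 0.50, 95% interval -0.37 to 1.93) at a limma adjusted p of 1.00. Leaving out wild-type replicate 1 gave 0.20, and leaving out wild-type replicate 2 gave 1.38. With a pseudocount of 1 the log2 fold change was 1.16, past a 2-fold difference, and with 32 it was 0.42. The normalized signal was 6.8 in wild-type replicate 1, below the pseudocount of 9. The second Matn3 probe set (1455948_x_at, whose suffix marks probes that can bind other transcripts) had 4.99 and 4.95 in RBP2-null and 4.90 and 4.72 in wild-type lines, a log2 fold change of 0.16 (95% interval -0.80 to 1.13).

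**Figure D2:**
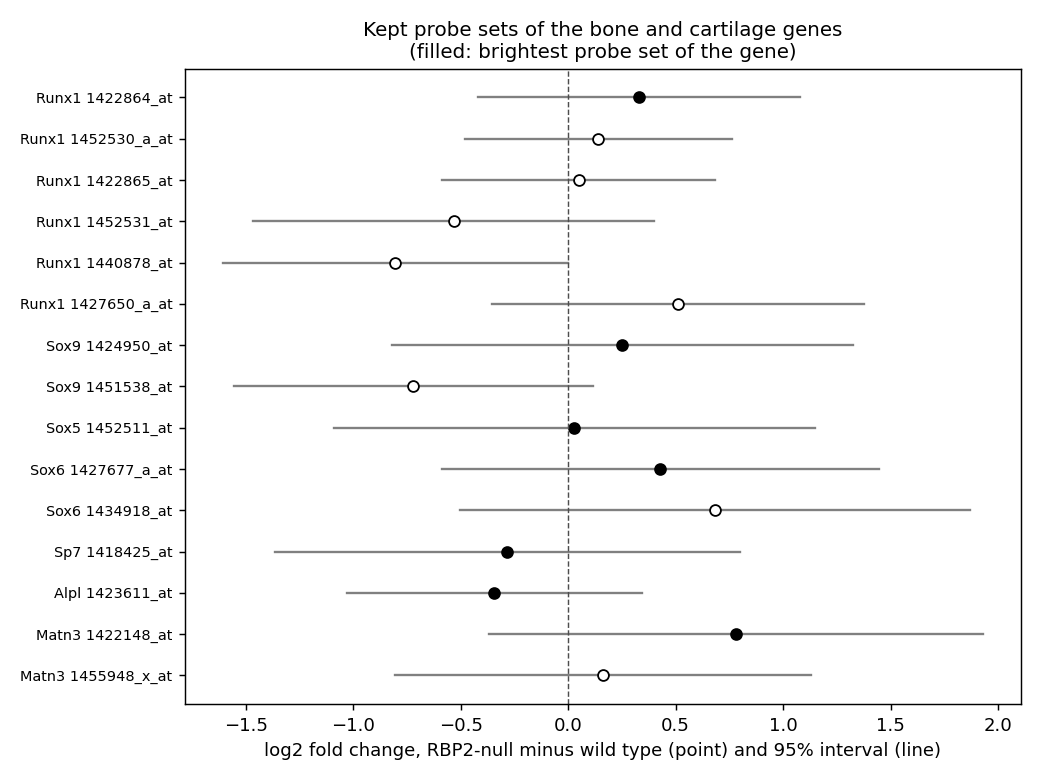
Log2 fold change, RBP2-null minus wild type, of the 15 kept probe sets (one row each) with the 95% interval from limma; filled points mark the brightest probe set of each gene. All but 1 interval include 0, the exception being Runx1 1440878_at, whose interval ends at -0.003, and Runx1 and Sox9 have points on either side of 0.

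Leaving out a single array turned the direction of 4 of the 7 brightest kept probe sets. Without wild-type replicate 1 the log2 fold change was -0.13 for Runx1, -0.37 for Sox9, -0.01 for Sox5 and 0.22 for Sp7, each on the other side of 0 from its value with all 4 arrays. Without RBP2-null replicate 2 the sign also turned for Sox9 (-0.16), Sox5 (-0.44) and Sp7 (0.12). Alpl, Sox6 and Matn3 kept their direction with each array left out. Wild-type replicate 1 was the lowest of the 4 arrays on 8 of the 26 probe sets and the highest on 9. Over the 15 kept ones it was the lowest on 6 and the highest on 4, against 31.4% and 31.5% of all kept probe sets.

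**Figure D3:**
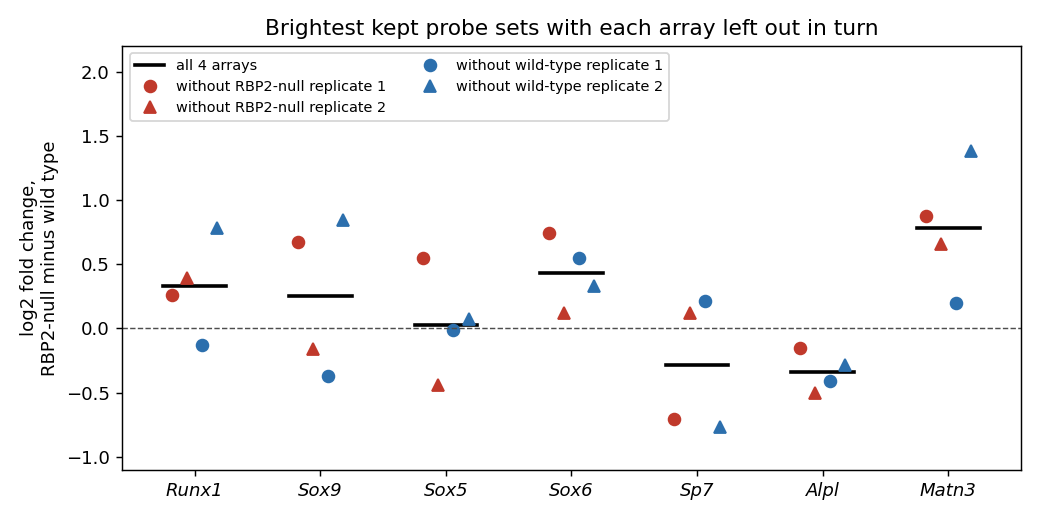
Log2 fold change, RBP2-null minus wild type, of the brightest kept probe set of 7 genes with all 4 arrays (black bar) and with each array left out (red: an RBP2-null array left out; blue: a wild-type array left out; circle replicate 1, triangle replicate 2). Points of Runx1, Sox9, Sox5 and Sp7 fall on either side of 0, and those of Sox6, Alpl and Matn3 on 1 side.

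Other genes of the bone and cartilage programmes were read on the brightest probe set of each gene, and 0 of them passed an adjusted p of 0.05 in either direction, against 0.00764% of all 13097 kept genes. Among osteoblast and mineralization genes, 19 of 25 named genes were kept, with 8 estimates above 0 (48.5% over all kept genes), 11 below and a median log2 fold change of -0.02. Both RBP2-null lines lay above both wild-type lines for 4 of the 19 and below both for 3, against 13.4% and 15.8% of kept genes. The calcification inhibitor Mgp had 9.93 and 11.43 in the RBP2-null lines and 9.52 and 9.76 in the wild-type lines, a log2 fold change of 1.04 (SE 0.41) that was 0.31 when RBP2-null replicate 2 was left out. The homeobox factor Msx1 had a log2 fold change of 0.79, or 0.27 without wild-type replicate 1, and Tnfrsf11b (osteoprotegerin, a decoy that restrains osteoclasts) had 0.62, or 0.18 without RBP2-null replicate 1. The type I collagen chain Col1a2 and the pyrophosphate transporter Ank had -0.18 and -0.23, the value for Ank being -0.03 when wild-type replicate 1 was left out. None of these passed the test.

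Among cartilage genes, 15 of 26 named genes were kept, with 7 estimates above 0, 8 below and a median of -0.15. Of the list, Comp, Hapln1, Matn1, Chad and Col9a2 were among the 11 below the filter, while Acan, Col2a1, Col10a1, Col11a1 and others were kept. The log2 fold change was 1.12 for Fgfr3, a growth plate receptor, and 1.08 for Matn2, a relative of Matn3, with 0.41 and 0.16 without wild-type replicate 1. The joint lubricant Prg4 had 0.59, or 0.34 without wild-type replicate 2, and the cartilage collagens Col9a1 and Col2a1 had -1.02 and -0.44, which turned to 0.09 without RBP2-null replicate 1 and 0.26 without wild-type replicate 1. None passed. Matn3, Matn2 and Fgfr3 each had wild-type replicate 1 as the lowest line, at 3.98, 6.22 and 4.13, as did 31.4% of all kept probe sets. For Col9a1 and Col2a1 it was the highest line. The levels of Matn3 and Fgfr3 in wild-type replicate 1 stand for a signal below the pseudocount of 9.

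Among partners and relatives of the RUNX and SOX factors, 23 of 25 named genes were kept, with 11 estimates above 0, 12 below and a median of -0.01. Sox11, a SOX factor of mesenchymal and neural precursors, had 8.73 and 8.16 in the RBP2-null lines and 9.51 and 8.95 in the wild-type lines, a log2 fold change of -0.79 (SE 0.28) at a limma adjusted p of 1.00. Both RBP2-null lines were lower. Twist2 and Twist1, which restrain osteoblast formation, had -0.36 and 0.40, Runx3 had -0.54 and Hif1a had 0.27. Leaving out wild-type replicate 1 gave 0.10 for Twist1, -0.28 for Runx3 and -0.51 for Sox11, which had -0.50 with RBP2-null replicate 2 left out. None passed.

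Markers of other cells that a fibroblast culture could hold were read beside these, since Runx1 is also a blood gene. Among osteoclast and macrophage markers 11 of 16 were kept, with 2 estimates above 0 and 9 below, while 48.5% of all kept genes were above 0. Both RBP2-null lines lay above both wild-type lines for 1 of the 11 and below both for 1, against 13.4% and 15.8% of kept genes. The summed normalized signal was 654 and 601 in the RBP2-null lines and 762 and 668 in the wild-type lines. It was lower in both RBP2-null lines, but 654 and 668 lie close together. Of the list, Ptprc, Cd68, Acp5, Calcr and Dcstamp were below the filter, while Csf1r, Adgre1, Ctsk, Itgb3 and others were kept. Oscar, Tyrobp, Csf1r, Fcer1g and Cd14 had log2 fold changes of 1.29, -0.54, -0.28, -0.58 and -0.31. The level of Oscar in wild-type replicate 2 was 3.92, a signal below the pseudocount of 9. Without wild-type replicate 1, Fcer1g turned to 0.19 and Cd14 had -6.7e-05, and Tyrobp had -0.24 without RBP2-null replicate 2. Among blood and endothelial markers 9 of 11 named were kept, summing to 327 and 459 in RBP2-null and 408 and 388 in wild-type lines, and Pecam1 and Tal1 were below the filter. Klf1, Gata1, Cd34, Hba-a1 and Pf4 had -1.32, -1.12, 1.04, 0.99 and 0.24. In level, Gata1 was at 4.05 in RBP2-null replicate 1 and Hba-a1 at 3.85 in wild-type replicate 1. Both stand for a signal below the pseudocount of 9. Leaving out RBP2-null replicate 1 gave -0.35 for Gata1, leaving out RBP2-null replicate 2 gave 0.23 for Cd34 and 0.10 for Pf4, and Hba-a1 had 0.52 once wild-type replicate 1 was dropped.

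Among tendon and ligament markers 4 of 6 were kept, summing to 1520 and 2842 in RBP2-null and 2090 and 2686 in wild-type lines. Egr1 makes up most of each sum, at levels of 10.27 and 11.16 in RBP2-null and 10.62 and 11.11 in wild-type lines. Scx was read on a probe set whose suffix (_x_at) marks probes that can bind other transcripts. The log2 fold changes were -0.65 for Fmod, -0.19 for Tnmd, -0.23 for Scx and -0.15 for Egr1. Leaving out RBP2-null replicate 1 gave -0.02 for Fmod and turned the others, to 0.19 for Tnmd, 0.29 for Scx and 0.29 for Egr1. The 12 fibroblast markers summed to 32447 and 36395 in RBP2-null and 30107 and 34541 in wild-type lines. Of their estimates 10 were above 0 and 2 below, while 48.5% of all kept genes were above 0. Among them were Dcn at 0.71, S100a4 at 0.40, Lum at 1.03, P4hb at -0.18 and Pdgfrb at -0.24. Lum had 0.02 and S100a4 had 0.14 when RBP2-null replicate 2 was left out, Dcn and P4hb had 0.27 and -0.10 when wild-type replicate 1 was, and Pdgfrb turned to 0.0027 when wild-type replicate 2 was. Epithelial markers (5 of 6 kept) summed to 508 and 698 in RBP2-null and 796 and 590 in wild-type lines. Most of each sum is Epcam, at levels of 8.30 and 8.90 in RBP2-null and 9.25 and 8.65 in wild-type lines. Its probe set also has the suffix for probes that can bind other transcripts. Log2 fold changes were -0.35 for Epcam, 0.38 for Krt18, -0.29 for Krt8, 0.24 for Krt19 and 0.20 for Cldn4. Of these, Krt19 turned to -0.15 when wild-type replicate 2 was left out, Cldn4 to -0.08 when wild-type replicate 1 was, Krt18 had 0.20 in that case, and Epcam had -0.05 when RBP2-null replicate 1 was left out. No marker passed the test. In such bulk cultures fewer cells of a type and less RNA per cell cannot be told apart, and the part of any of these cells in the values of the bone and cartilage genes was not tested.

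**Figure D4:**
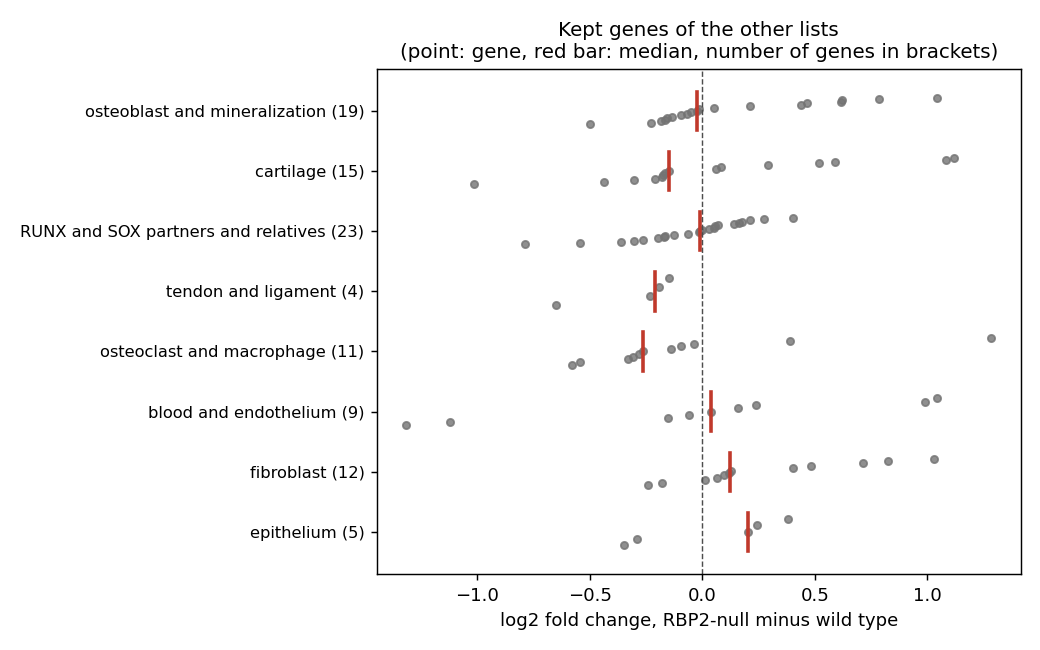
Log2 fold change, RBP2-null minus wild type, of each kept gene of 8 other gene lists (rows, with the number of kept genes in brackets); red bars mark the median of a list. Medians lie between -0.26 for osteoclast and macrophage markers and 0.20 for epithelial markers, and each list but tendon has genes on either side of 0.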

How the data were processed

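The authors deposited a linear intensity for each of 45101 probe sets, 64 of them controls, on each array. Biotin-labelled total RNA and an Affymetrix array are named, per the labels. The probe summary and background correction are not given in the sources used here. From these values the controls were left out. The 2% trimmed means differed by up to 2.46 times between arrays, so quantile normalization was applied, 9 (the 25th percentile, rounded) was added and log2 taken. The upper 60% of probe sets by mean were kept. Genotypes were compared in limma 3.58.1 under R 4.3.3, with a mean-dependent prior variance, two-sided tests and Benjamini-Hochberg adjustment over all 27022 kept probe sets. An exact permutation test of 2 against 2 lines cannot give a p below 0.333. Gene symbols came from a platform annotation table, older symbols were matched through RefSeq, and a gene was read on the probe set with the highest mean. Every kept probe set of the 8 measured genes is named, and dim ones are named in part. From each other list, values are given for up to 5 kept genes, those with the smallest unadjusted p. Members and lists were chosen with earlier results of these data known. The arrays' number limits the precision of every value.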

Additional observations from a re-analysis of the deposited data

How the results depend on the processing

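No probe set of the bone and cartilage genes passed the threshold in any of the 12 alternatives with a test. These changed the pseudocount, the filter on dim probe sets, the scaling or the variance model, added the replicate number as a block, or left out an array. Over all probe sets the count, 1 with all 4 arrays, was 0 without the filter, without scaling and without the mean-dependent variance, and 2 with median-centred arrays. Leaving out an array gave 0 (RBP2-null replicate 2), 1 (RBP2-null replicate 1), 2 (wild-type replicate 1) or 41 (wild-type replicate 2). With the replicate number as a block it was 49, including 2 genes of the other bone and cartilage lists against 0 without it. The numbers were not taken as pairs, since the labels state no shared litter or batch and the 2 pairs give 1 correlation of deviations from the genotype means, 0.113. The direction of the brightest probe set turned for 4 genes. With each array left out in turn the log2 fold change ranged from -0.13 to 0.78 for Runx1, from -0.37 to 0.85 for Sox9, from -0.44 to 0.55 for Sox5 and from -0.77 to 0.22 for Sp7. Taken as the mean over all probe sets of the gene, Runx1 had -0.051 and Sox9 -0.32. Sox5 had -0.0063 with a pseudocount of 1 and -0.13 without scaling and with median-centred arrays, each relative to the median shift over kept probe sets, 0.38 and 0.18. Sox6 kept its sign as the mean over its 4 probe sets, at 0.013, against 0.43 on the brightest. Apart from the arrays left out, whose removal is itself the change, the cause was not tested. Of the probe sets, 11 of 26 were below the filter, among them both of Ibsp.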
